A study of Mus musculus with 36 samples.

Results

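Liver transcripts of 9 genes for corepressors and for the SWI/SNF chromatin remodeling complex were followed on whole-genome microarrays in 36 adult male mice, of strain C57BL/6J by the labels and C57BL/6JOlaHsd by the study's methods. The genes were Ncor1, Hdac3, Tbl1x and Sin3a on the corepressor side, and Smarca2, Smarca4, Smarcc1, Arid1a and Arid2 on the remodeler side. Members were all probes that carry one of these gene names in the array files or by their current symbol, which gave 21 of the 41174 distinct probes on the array. Of these, 19 are among the 21781 probes of the authors' table. The genes were chosen by 2 measured differences of these arrays, a lower Ncor1 signal in HF than in t=0 and a higher Smarca2 signal in HF-Q than in HF, so in those 2 comparisons the values and the counts past the threshold are a description, and no p of a member is given. In all, the table names 13042 genes.

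A diet with a mildly raised fat content, at 30% of the energy, was given to all mice in an adaptation phase. That phase lasted 3 weeks by the labels and 2 weeks by the study's methods. The t=0 group (n = 12) was killed at the end of that phase, the HF group (n = 12) stayed on the diet for another 12 weeks, and the HF-Q group (n = 12) received the diet with 0.33% (w/w) quercetin, a flavonol of plant foods, for 12 weeks. There was no group on another diet, and t=0 mice were killed 12 weeks before the rest, so that age, time on the diet and day of sampling cannot be told apart between t=0 and the later groups. Each array held Cy5-labelled RNA of 1 mouse and a Cy3-labelled pool of all samples. Values are the authors' log2 normalized signals, where a higher value means more RNA in the mouse and 1 unit is a doubling of the measured ratio. The authors did not subtract background, so that differences of dim probes need not equal those of the RNA. Some of them were smaller after background correction and loess, as given below. One array stood apart, that of HF-Q replicate 2, where 96.7% of Cy5 spots were well above background (56.4 to 67.4% on the other 35 arrays), and results that it moves are given with and without it.

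NCOR1 is a large scaffold protein that sits on nuclear receptors when no activating ligand is bound. It holds and activates the histone deacetylase HDAC3, together with TBL1X and related subunits, so that acetyl groups are taken off histones and target genes are kept low. In liver this complex works with REV-ERB, PPAR and thyroid hormone receptors on genes of lipid metabolism and of the daily clock. SWI/SNF complexes use ATP to move nucleosomes. Their motor is either SMARCA2 (BRM) or SMARCA4 (BRG1), SMARCC1 is a core scaffold, and ARID1A and ARID2 mark the BAF and the PBAF form of the complex.

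The genes by which the set was chosen, Ncor1 and Smarca2, are shown with the 250 bases before their annotated starts, from RefSeq in build GRCm38.p6, to let a reader see what precedes each transcript. RefSeq promoter windows matched 7 of the 9 genes, in 10 windows, with none used for Hdac3 and Arid2. Ncor1 has 2 of them, 18817 bases apart on the minus strand. Capitals mark the GC box GGGCGG on either strand.
Ncor1, upstream start, chr11:62457333-62457582, minus strand: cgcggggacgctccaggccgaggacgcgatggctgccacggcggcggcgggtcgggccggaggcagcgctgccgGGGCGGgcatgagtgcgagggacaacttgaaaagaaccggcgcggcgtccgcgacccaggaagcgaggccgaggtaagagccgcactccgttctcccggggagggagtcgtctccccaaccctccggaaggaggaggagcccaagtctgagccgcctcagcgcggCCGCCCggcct
Ncor1, downstream start, chr11:62438516-62438765, minus strand: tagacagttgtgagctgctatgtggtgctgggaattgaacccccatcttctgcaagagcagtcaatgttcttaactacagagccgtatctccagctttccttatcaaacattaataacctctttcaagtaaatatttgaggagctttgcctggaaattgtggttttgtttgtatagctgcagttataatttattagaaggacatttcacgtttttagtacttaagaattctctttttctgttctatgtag
Smarca2, chr19:26604910-26605159, plus strand: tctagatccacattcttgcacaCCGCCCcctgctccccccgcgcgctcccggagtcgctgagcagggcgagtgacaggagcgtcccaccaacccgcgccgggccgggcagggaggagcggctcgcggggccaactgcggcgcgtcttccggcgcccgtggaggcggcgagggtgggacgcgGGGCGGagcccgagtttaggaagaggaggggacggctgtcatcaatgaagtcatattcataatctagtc
The upstream Ncor1 window is 73.6% G and C with 2 GC boxes, the downstream one 36.8% with none, and that of Smarca2 68.4% with 2. A GC box was present in 9 of the 10 member windows and in 32.7% of all 32817 windows. Neither the E-box CACGTG, the motif that CLOCK and BMAL1 are known to bind, nor the half-site AGGTCA of nuclear receptors was found in a member window, and they occur in 6.02% and 14.0% of all windows. The 3 motifs were searched on both strands and none of them is contained in another.

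Ncor1 is read by 7 probes, and the most upstream of them behaved unlike the most downstream ones. The array files place probes on mouse build mm8, where Ncor1 lies on the minus strand. Exon annotation of that build was not used here. Downstream probes of a gene are called 3′ probes for their order among the probes, and distances to the ends of the transcript were not examined. The most upstream probe, A_52_P487598 at chr11:62235836-62235895, had a lowest, median and highest log2 signal of 10.32, 10.51 and 10.65 at t=0. In HF mice these were 9.65, 9.92 and 10.06. In HF-Q mice they were 9.73, 10.07 and 10.42. Every HF mouse was below every t=0 mouse, while the HF-Q mice spread from the HF range up into the lower end of the t=0 range. The mean was lower in HF than in t=0 by a log2 difference of -0.61 ± 0.05 (SE), which is 34.4% lower. HF-Q was above HF by 0.18 ± 0.07, with 6 of 12 HF-Q mice above the highest HF mouse.

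The most downstream probes of Ncor1, A_52_P561934 and A_52_P561927, gave almost the same level in HF and t=0. Probe A_52_P561934, at chr11:62134177-62135571 and 100324 bases downstream of the most upstream probe, had medians of 12.31 at t=0, 12.34 at HF and 12.2 at HF-Q. Its HF range of 12 to 12.57 covered nearly the whole t=0 range of 12.2 to 12.58. Its neighbour A_52_P561927, at chr11:62137342-62137401, had medians of 10.95, 10.88 and 10.84 in the same order. The differences between HF and t=0 were -0.01 ± 0.06 and -0.08 ± 0.06 (log2, SE), with 95% intervals from -0.13 to 0.11 and from -0.19 to 0.03. These 2 probes carry the RefSeq accession NM_011308 of Ncor1 in the files, as does the most upstream probe. Their Ensembl transcripts are not the one listed for the most upstream probe.

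**Figure D1:**
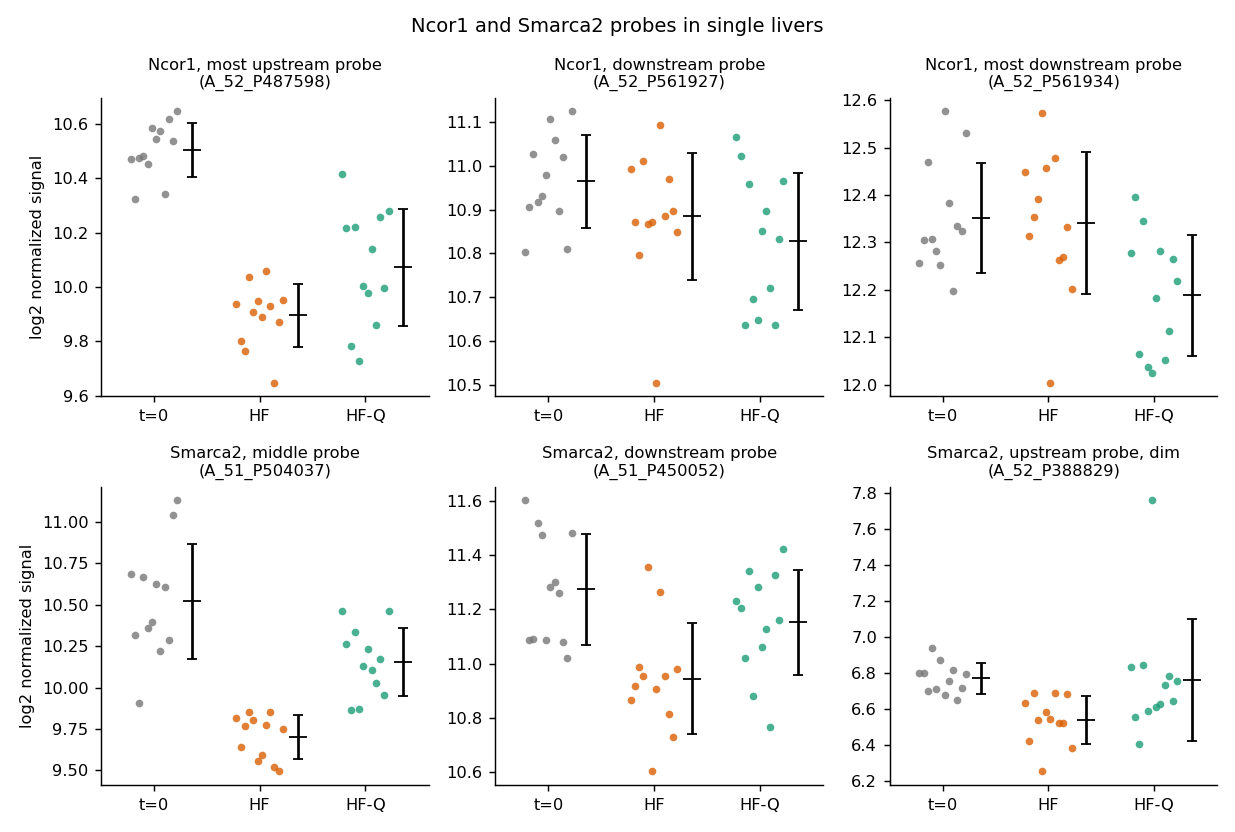
Log2 normalized signal (vertical axes) of 3 Ncor1 and 3 Smarca2 probes in each of 36 livers, by group; points are single mice, placed sideways at random, and bars give the mean ± SD of 12 mice. The most upstream Ncor1 probe and the middle Smarca2 probe separate t=0 from HF without overlap, the 3′ probes of Ncor1 do not, and 1 HF-Q mouse stands at 7.76 on the dim Smarca2 probe.

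The difference between these probes of Ncor1 was taken within each mouse, as the most upstream minus the downstream probe. Against A_52_P561934 this contrast of probes ran from -2.03 to -1.67 in t=0 mice and from -2.66 to -2.12 in HF mice, with no overlap. HF-Q mice ran from -2.31 to -1.86, between those groups and overlapping both. Relative to A_52_P561934, the most upstream probe was thus lower in HF-Q than in t=0 by a log2 difference of -0.27 ± 0.06 (SE). The difference was -0.29 ± 0.05 when A_52_P561927 was taken as the 3′ probe. From loess-normalized scanner signals these were -0.22 and -0.27, and without HF-Q replicate 2 they were -0.28 and -0.3, both settings added after the data were seen.

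Between these probes lies A_52_P244895, 17917 bases downstream of the first probe. It carries the cDNA accession AK035813, as the most upstream probe also does, and no RefSeq accession. It was dim, at 3.8 times background in Cy5, with medians of 7.54, 7.48 and 7.49 at t=0, HF and HF-Q and ranges that overlapped in all groups. The other 3 Ncor1 probes lie on the strand opposite to the gene. Coordinate order in the files followed the gene's strand for 99.7% of 19457 probes that were named through RefSeq accessions and had a known strand. These 3 probes carry cDNA accessions and were not part of that check, and what RNA they bind is not known from the files. One of them, A_51_P457744, had medians of 7.87, 7.66 and 7.81 and was lower in HF than in t=0 by -0.21 ± 0.05. From loess-normalized scanner signals this probe, at 4.62 times background in Cy5, differed by -0.12 ± 0.05. Its reading in HF-Q replicate 2, 8.2, was the highest of its group. The other 2, A_52_P357298 and A_52_P43661, are not in the authors' table. From loess-normalized scanner signals their differences between HF and t=0 were -0.09 ± 0.05 and -0.02 ± 0.06.

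Hdac3, the deacetylase that NCOR1 activates, has 1 probe. Its log2 signal ran from 10.13 to 10.44 at t=0 (median 10.26), from 10.1 to 10.49 at HF (median 10.16) and from 9.92 to 10.29 at HF-Q (median 10.1). The groups overlapped, although 8 of 12 HF-Q mice were below the lowest t=0 mouse. Tbl1x, the WD-repeat subunit that helps to exchange corepressors for coactivators, had medians of 8.99, 9.06 and 9.01, and its range in HF, 8.97 to 9.22, lay inside that of t=0, 8.78 to 9.35. Sin3a, scaffold of a separate corepressor that carries HDAC1 and HDAC2, had medians of 9.43, 9.38 and 9.36. For both genes the ranges of all groups overlapped, and their differences between HF and t=0 were 0.08 ± 0.05 and -0.04 ± 0.04 (log2, SE).

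Smarca2, the BRM motor, was lower in HF than in t=0 on all 3 of its probes in the authors' values, and higher in HF-Q than in HF on all 3. The 1 near background differed little in loess-normalized signals, as given below. On the middle probe, A_51_P504037 at chr19:26721465-26721524 of mm8, the lowest, median and highest log2 signals were 9.91, 10.5 and 11.13 at t=0. They were 9.49, 9.76 and 9.86 at HF and 9.86, 10.15 and 10.46 at HF-Q. HF mice were thus below all others, with the highest HF mouse just under the lowest HF-Q mouse, and 2 of 12 HF-Q mice were below the lowest t=0 mouse. The mean of HF was lower than that of t=0 by -0.82 ± 0.10 (log2, SE), or 43.3%, and HF-Q exceeded HF by 0.45 ± 0.07, or 37% (0.46 ± 0.07 without HF-Q replicate 2). The t=0 mice were the most spread, with an SD of 0.35 against 0.13 in HF and 0.21 in HF-Q.

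Probe A_51_P450052 of Smarca2, at chr19:26845001-26845060 and 154023 bases downstream of the first probe, carries the RefSeq accessions NM_026003 and NM_011416. Of these the middle probe carries NM_011416 only. Its medians were 11.27 at t=0, 10.93 at HF and 11.18 at HF-Q. The groups overlapped here, with an HF range of 10.6 to 11.36 against 11.02 to 11.6 at t=0. HF was lower than t=0 by -0.33 ± 0.08, and HF-Q was above HF by 0.21 ± 0.08. The middle probe moved further than this one, by -0.49 ± 0.11 in HF relative to t=0 and by 0.25 ± 0.06 in HF-Q relative to HF.

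The remaining Smarca2 probe, A_52_P388829 at chr19:26690978-26691037, was close to background, at 2.38 times in Cy5 and 1.72 times in Cy3. Its medians were 6.78, 6.54 and 6.69 at t=0, HF and HF-Q. Between HF and t=0 its mean difference was -0.23 ± 0.05. From loess-normalized scanner signals this probe differed by -0.09 ± 0.05 between HF and t=0 and by 0.04 ± 0.05 between HF-Q and HF. Its mean difference between HF-Q and HF, 0.22 ± 0.10, was 0.13 ± 0.06 without HF-Q replicate 2, which stood at 7.76 where the other HF-Q mice reached 6.85. That mouse was also the highest HF-Q mouse on the dim probes A_52_P147044 of Smarca4 and A_52_P312837 of Smarcc1, by 0.98 and 1.26 above the mean of the other HF-Q mice.

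**Figure D2:**
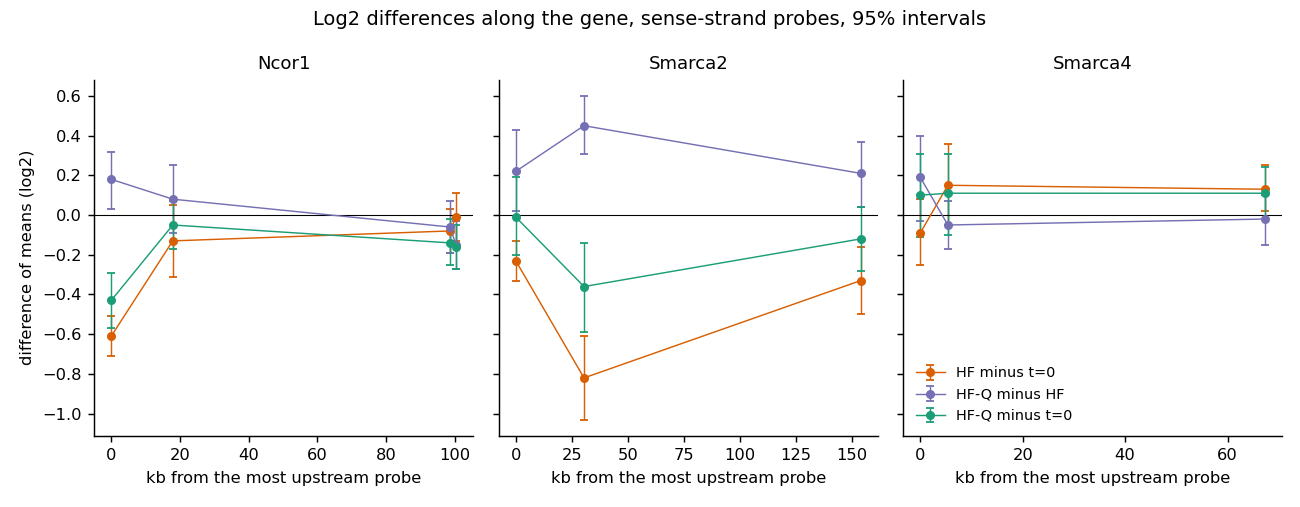
Difference of group means in log2 units (vertical axis) against distance in kb from the most upstream probe of the gene (horizontal axis), for sense-strand probes of Ncor1, Smarca2 and Smarca4; bars are 95% intervals of limma, and colours stand for the 3 comparisons. Between HF and t=0, Ncor1 is at -0.61 at its first probe and at -0.01 at its last, the middle Smarca2 probe is at -0.82, and the Smarca4 probes lie between -0.09 and 0.15.

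Smarca4, the alternative motor BRG1, was not lower in HF than in t=0 on its bright probes. Its brightest probe, A_51_P331702, had medians of 12.62, 12.76 and 12.69 at t=0, HF and HF-Q, and the t=0 range of 12.13 to 13.27 enclosed both other groups. Its most downstream probe, A_51_P479733, had medians of 11.1, 11.19 and 11.16, with 5 of 12 HF mice above the highest t=0 mouse. The differences between HF and t=0 were 0.15 ± 0.10 and 0.13 ± 0.05 (log2, SE), both positive where those of Smarca2 were negative. The most upstream probe, A_52_P147044, which was dim, gave -0.09 ± 0.08.

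Smarcc1, the core scaffold, had medians of 10.89, 11 and 10.95 on its bright probe A_51_P502184 and overlapped in all groups. Its dim probe A_52_P312837, at 2.38 times background in Cy5, had medians of 6.62, 6.49 and 6.53. Arid1a, the DNA-binding subunit of BAF, had medians of 10.49, 10.49 and 10.48. Arid2, the subunit that defines PBAF, gave 11.7, 11.72 and 11.6 on its bright probe A_51_P399545 and 8.19, 8.08 and 8.11 on A_52_P25008. For these 3 genes the differences between HF and t=0 lay between -0.15 and 0.06 on the log2 scale, and those between HF-Q and HF between -0.06 and 0.15, where the upper end is the dim Smarcc1 probe, at 0.05 ± 0.06 without HF-Q replicate 2.

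**Figure D3:**
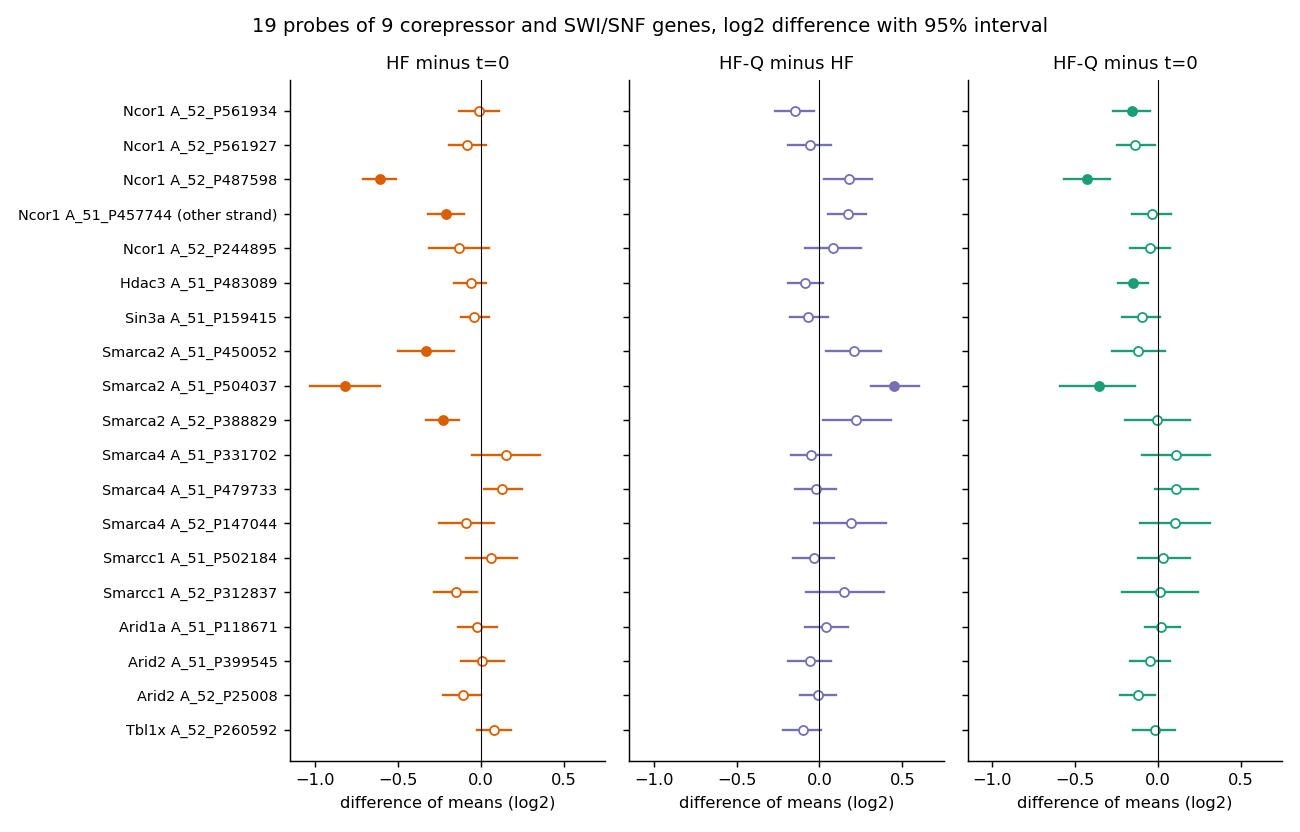
Difference of group means in log2 units (horizontal axes) for the 19 probes of the 9 genes (rows) in the 3 comparisons (panels); points are means with 95% intervals of limma for 12 against 12 mice, filled where the adjusted p over all 21781 probes was under 0.05. Filled points belong to Ncor1 and Smarca2 in the first panel, to Smarca2 in the second, and to Ncor1, Hdac3 and Smarca2 in the third.

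Counted over all members, 5 of 19 probes had an adjusted p under 0.05 between HF and t=0, all lower in HF, where 21.3% of all probes in the table did (10.4% lower and 10.9% higher). These were 2 probes of Ncor1, 1 of them on the opposite strand, and the 3 of Smarca2, 1 of them near background. The call of that dim Smarca2 probe held under 4 of 10 alternatives, and that of the opposite-strand Ncor1 probe under 7 of 10. The groups did not overlap for 2 members and for 0.565% of all probes. Between HF-Q and HF, 1 of 19 member probes passed, the middle Smarca2 probe, against 2.36% of all probes (1.49% higher), and its groups were also free of overlap, as for 0.023% of all probes. After normexp and median centring that probe was not called, and 0.354% of all probes were. Both comparisons served to choose the genes, so nothing is read from these shares. The median log2 difference of the members was -0.08 between HF and t=0 and -0.01 between HF-Q and HF, beside 0.00 and 0.01 over all probes.

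HF-Q and t=0 were not compared in choosing the genes, although the mice are those of the other comparisons. The t=0 values of Ncor1 and the HF-Q values of Smarca2 did enter the choice. For these 2 genes the adjusted p below are therefore not free of the choice and are given as a description. Of the 19 member probes, 4 were called by limma, all lower in HF-Q, beside 11.9% of all probes (5.3% lower and 6.62% higher). The most upstream Ncor1 probe was lower by -0.43 ± 0.07 (log2, SE; adjusted p = 0.000213), and 11 of 12 HF-Q mice were below the lowest t=0 mouse. The middle Smarca2 probe was lower by -0.36 ± 0.11 (adjusted p = 0.0281). Smaller differences were found for Hdac3, at -0.15 ± 0.04 (adjusted p = 0.0257), and for the 3′ probe A_52_P561934 of Ncor1, at -0.16 ± 0.05 (adjusted p = 0.046). The call of the last of these held under 6 of 12 alternatives, and without HF-Q replicate 2 it did not pass (-0.15 ± 0.05, adjusted p = 0.0653). After background correction without loess (normexp and median centring), none of the 4 passed, and 1.82% of all probes did. With normexp and loess, all 4 passed, together with A_52_P244895 of Ncor1 at -0.14 ± 0.04 (adjusted p = 0.0237). No groups of these 4 were free of overlap, a state reached by 0.193% of all probes.

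The remaining 15 probes did not pass between HF-Q and t=0. Their 95% intervals, in log2 units, bound what could have been missed. For Arid1a the interval ran from -0.08 to 0.13, and for the bright Arid2 probe from -0.17 to 0.07. That of the bright Smarcc1 probe ran from -0.12 to 0.19. For Smarca4 it was -0.02 to 0.24 on the 3′ probe and wider, -0.1 to 0.31, on the brightest probe. The intervals of A_52_P561927 of Ncor1 (-0.25 to -0.02) and A_52_P25008 of Arid2 (-0.23 to -0.02) were negative throughout, although neither probe was called. The downstream Smarca2 probe had -0.12 ± 0.08 with an interval from -0.28 to 0.04. The median of the 19 probes was -0.05, beside 0.01 over all probes.

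**Figure D4:**
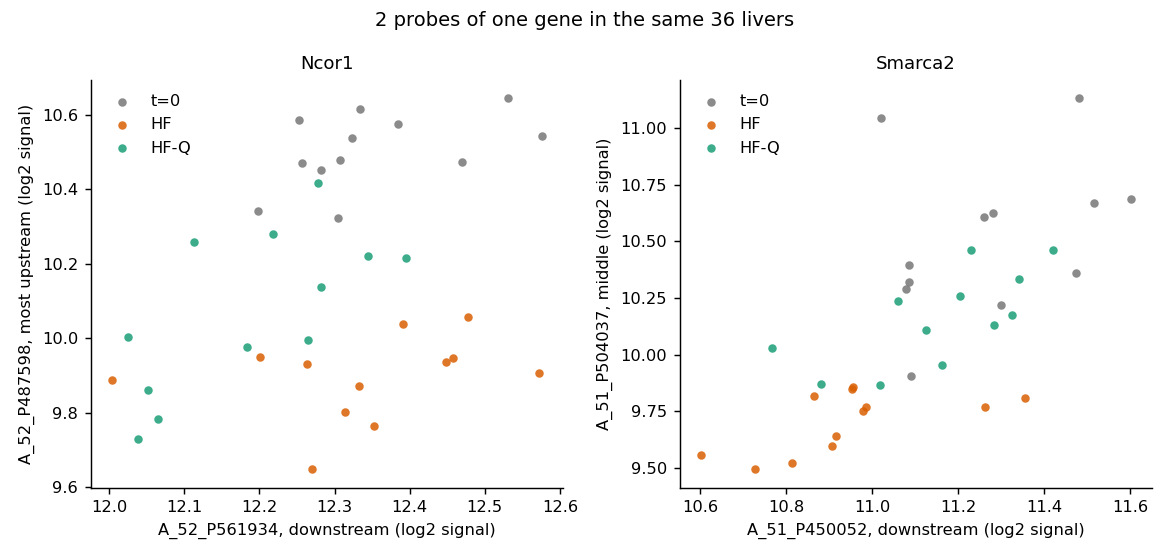
Log2 signal of the most upstream Ncor1 probe against the 3′ probe A_52_P561934 (left), and of the middle Smarca2 probe against the downstream probe A_51_P450052 (right); each point is 1 of 36 livers, coloured by group. In Ncor1 the t=0 and HF mice lie in separate bands on the vertical axis over the same span of the horizontal axis, and in Smarca2 the HF mice are lowest on the vertical axis.

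Whether members vary together between mice of the same group was examined over the 19 probes, as 171 pairs in each of 3 groups, with Pearson and Spearman correlations over 12 mice. With Benjamini-Hochberg adjustment over 513 permutation tests, 0 pairs passed. At an unadjusted p under 0.05 there were 73, of which 57 were positive, and with loess-normalized values 5 pairs passed the adjustment. The pair with the lowest permutation p was the most upstream Ncor1 probe with the middle Smarca2 probe in HF-Q mice, at r = 0.88 (permutation p = 0.00018, adjusted p = 0.0769) and rho = 0.86 (permutation p = 0.00063). Without the 2 mice farthest from the Ncor1 median r was 0.81, and with loess-normalized values it was 0.90 (permutation test, adjusted p = 0.0231). In HF mice the same pair had r = 0.52 and in t=0 mice r = 0.24 (permutation p = 0.0837 and 0.459), and the difference between groups was not tested. A slide held 4 arrays, too few of any group for a value within slides.

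Bright probes of the same gene served as a measure of how well single mice were ranked. The 3′ probes A_52_P561934 and A_52_P561927 of Ncor1 gave r = 0.78, 0.70 and 0.88 in t=0, HF and HF-Q mice (permutation p = 0.00248, 0.0189 and 0.00056, adjusted p = 0.141, 0.262 and 0.0769), with rho = 0.76, 0.40 and 0.78 (permutation p = 0.00544, 0.201 and 0.004). Without the 2 farthest mice r was 0.57, 0.52 and 0.84. The middle and downstream probes of Smarca2 gave r = 0.34, 0.63 and 0.69 (permutation p = 0.284, 0.0267 and 0.0129, adjusted p = 0.697, 0.288 and 0.231). For the 18 pairs of probes within a gene the median r was 0.31 in t=0, -0.2 in HF and 0.17 in HF-Q mice. Those pairs include dim probes and the opposite-strand Ncor1 probe A_51_P457744, whose target is not known. Their median is therefore not a measure of how well mice were ranked.

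Genes whose values followed the brightest probes most closely over the 36 mice, after subtraction of group means, are given as a description. For the 3′ Ncor1 probe A_52_P561934 they were Zc3h11a (r = 0.84), Tgoln1 (0.79), Oga (0.79), Nek7 (0.78) and Ppp2r2d (0.78). For the downstream Smarca2 probe they were Clmn (r = 0.87), Man2a1 (0.81), Gys2 (0.79), Lrp4 (0.79) and Nhlrc2 (0.78). When the probes that differed most between groups were used instead, the nearest gene was Ubn1 (r = 0.66) for Ncor1 and Ramp2 (r = 0.71) for Smarca2. All points share the reference pool and the scaling of their array.

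Other subunits of these complexes were taken from lists, with the brightest probe of each gene. Of 25 measured corepressor subunits, 5 were called higher in HF than in t=0 and 2 lower, that is 20% and 8%, where 13.4% and 7.74% of 13042 genes were called higher and lower. The largest differences were those of Tbl1xr1, the paralog of Tbl1x, at -0.38 ± 0.09, of Sap30, a SIN3 subunit, at 0.37 ± 0.05, of Rcor1, the CoREST scaffold, at 0.30 ± 0.08, and of Mta2, a NuRD subunit, at 0.22 ± 0.06 (log2, SE). The list's median was 0.09, beside 0.02 for all genes.

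Between HF-Q and HF, limma called 0 of the 25 corepressor subunits and 0 of 18 further SWI/SNF subunits, where 1.16% of all genes were called higher and 1.09% lower. At an unadjusted p under 0.05 there were 4 and 3, where 15.4% of all probes were. Between HF-Q and t=0, Sap30 (0.28 ± 0.07), Nrip1 (0.21 ± 0.05), a ligand-dependent corepressor, and Mbd3 (0.20 ± 0.05) were higher and Chd4 (-0.16 ± 0.05), the NuRD motor, was lower, against 7.43% higher and 5.4% lower over all genes. Among the 18 SWI/SNF subunits, Phf10 (0.22 ± 0.06) and Actl6a (0.19 ± 0.07) were called higher in HF than in t=0. Brd7 (-0.12 ± 0.04) was called lower. That is 11.1% higher and 5.56% lower, beside 13.4% and 7.74% of all genes. In HF-Q relative to t=0, Smarcd3 was higher (0.18 ± 0.06) and Brd7 was lower (-0.16 ± 0.04). That is 5.56% each, beside 7.43% and 5.4% of all genes. The Smarcd3 probe had a low signal, with means of 7.21 at t=0 and 7.39 in HF-Q. The SWI/SNF list's median was 0.04, -0.04 and 0.01 in the 3 comparisons, in the order HF against t=0, HF-Q against HF and HF-Q against t=0.

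Partners of the corepressors were measured beside them. Of 8 coactivators, 2 were called lower in HF than in t=0 (25%, beside 7.74% of all genes). These were Ppargc1a (-0.43 ± 0.15), a coactivator of fasting metabolism, and Ep300 (-0.15 ± 0.05), a histone acetyltransferase. The Ep300 probe had a low signal, with means of 7.33 at t=0 and 7.18 in HF, and its difference after background correction is not given. In both other comparisons limma called 0 of the 8, with 0 also at an unadjusted p under 0.05. That level was reached by 26.5% of all probes between HF-Q and t=0. Of 8 nuclear receptors that bind NCOR1, Nr1d2 (REV-ERBβ) was the 1 called between HF-Q and HF (0.42 ± 0.09, higher in HF-Q), that is 12.5% beside 1.16% of all genes. Relative to t=0, Thrb was higher (0.30 ± 0.10) and Nr1h2 lower (-0.15 ± 0.04) in HF-Q, that is 12.5% each, beside 7.43% and 5.4% of all genes. Nr1d1 (REV-ERBα) differed by 0.00 ± 0.11 between HF-Q and HF and by -0.19 ± 0.10 between HF and t=0, neither called.

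Of 8 clock genes, 2 were called higher and 2 lower in HF-Q than in HF, that is 25% each, beside 1.16% and 1.09% of all genes. No test of the list was made. Arntl, which encodes BMAL1, ran from 7.1 to 9.45 at t=0, from 7.8 to 9.23 at HF and from 6.9 to 8.61 at HF-Q. Its mean in HF-Q was 0.501 times that in HF, and Clock was lower by -0.46 ± 0.09 (log2, SE). Dbp, an output gene of the clock, was higher by 0.92 ± 0.19 and Per3 by 0.42 ± 0.09. The Per3 probe had a low signal, with means of 6.49 in HF and 6.91 in HF-Q, and its difference without HF-Q replicate 2 is not given. Between HF and t=0, Nfil3 was higher (0.53 ± 0.16) and Per3 lower (-0.28 ± 0.10), that is 12.5% each, while Arntl differed by 0.61 ± 0.24 and was not called. Hour of death is not given in the labels, and the part of the clock in the values of Ncor1 and Smarca2 was not tested.

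Markers of hepatocytes were bright in all groups, with the log2 of the summed signal of 5 genes between 19.55 and 20.48 over the 36 mice, and 2 of the 5 were called lower in HF and in HF-Q than in t=0. Of all genes, 13.4% were called higher and 7.74% lower in HF than in t=0. In HF-Q these shares were 7.43% and 5.4% relative to t=0, and 1.16% and 1.09% relative to HF. Of 3 erythroid genes, 2 were called higher in HF and in HF-Q than in t=0, and 1 was called lower in HF-Q, and their summed log2 signal ran from 15.65 to 16.57 at t=0, from 16.58 to 18.57 at HF and from 16.91 to 17.94 at HF-Q. Of 4 cholangiocyte genes, 2 were also called higher in HF, with medians of 13.71 at t=0, 14.1 at HF and 13.7 at HF-Q. Of 4 endothelial genes, 1 was called lower in HF than in t=0 and 1 was called higher in HF-Q than in HF, and of 5 stellate cell and 4 lymphocyte genes limma called 0 in any comparison, with at most 1 at an unadjusted p under 0.05. Kupffer cell genes, with 0 of 5 called by limma and 3 at an unadjusted p under 0.05 (35.5% of all probes) between HF and t=0, had medians of 14.72, 15.18 and 15.15. Between HF-Q and t=0 all 5 were higher, with 0 called by limma and 4 at an unadjusted p under 0.05 (26.5% of all probes). In whole liver, fewer cells of a type and less RNA per cell cannot be told apart, and the part of these markers in the differences of Ncor1 and Smarca2 was not tested.

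Slides were examined because 9 slides of 4 arrays each held all 3 groups. With the group as a covariate, 42 of 21781 probes (0.193%) differed between slides and 0 of 19 members did by limma's F test, with 4 at an unadjusted p under 0.05, as for 9.26% of all probes. With the slide as a block, the middle Smarca2 probe was lower in HF-Q than in t=0 by -0.35 ± 0.11 (adjusted p = 0.0504) and the 3′ probe A_52_P561934 of Ncor1 by -0.18 ± 0.06 (adjusted p = 0.0585), so that both lost their call, while the most upstream Ncor1 probe was called.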

How the data were processed

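Processed values are those of the authors' table, which holds log2 values of 23256 spots. Compared with the scanner files, these values equal the log2 ratio of unsubtracted Cy5 over Cy3 signal, scaled per spot and set to 1 median per array (8.961, with a median absolute difference of 4.66e-07). Deposited scanner files give the intensity of each spot and of its background in both channels, from Agilent Feature Extraction 10.5.1.1 according to the submitters' processing notes and the file headers. Spots of 1 probe were averaged. Probes were named by the files' gene names, or through accessions matched to RefSeq (24375 of 41174 probes by accession, 8072 without a name). Positions are mm8.

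Groups and replicate numbers came from the sample titles, with 12 mice per group. Comparisons of 2 groups were fitted with limma 3.58.1 in R 4.3.3 (lmFit and eBayes, two-sided, Benjamini-Hochberg over 21781 probes, called at an adjusted p under 0.05). Correlations used 100000 permutations, two-sided. The fit was tested on simulated data. The genes, lists and markers were chosen with earlier results of these data known. The text names every member probe, of the lists up to 4 called genes per comparison together with Arntl, Dbp and Nr1d1, and the 5 genes most like Ncor1 and Smarca2. The genes nearest the probes that differed most were named after their values were seen.

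Equal replicate numbers were not treated as pairs, since the median correlation of same-numbered mice was 0.061, -0.01 and 0.033 over 12 pairs in the 3 comparisons, and 4, 3 and 4 pairs exceeded 0.1. Alternatives were other background corrections and normalizations, filters on dim probes, 1 fit over 36 arrays, the replicate number and the slide as blocks, the methods' t-test with Benjamini-Hochberg adjustment, and leaving out HF-Q replicate 2. The number of arrays and the nearness of dim probes to background limit the precision. RefSeq promoter windows were cut to 250 bases.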

Additional observations from a re-analysis of the deposited data

How the results depend on the processing

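Of 222 values of member probes recomputed between HF-Q and t=0, 208 stayed on their side of the threshold, 11 lost the call and 3 gained it. The sign changed in 13 of 203 values between HF and t=0, 11 of 222 between HF-Q and HF and 5 of 222 between HF-Q and t=0. As reported, without the alternative, these differences were at most 0.09, 0.08 and 0.05 in size on the log2 scale, with 0 of them called under either setting. As a description of values that chose the genes, the most upstream Ncor1 probe ranged from -0.68 to -0.48 between HF and t=0, and the middle Smarca2 probe from 0.38 to 0.52 between HF-Q and HF.

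With normexp and median centring, 77 probes were called between HF-Q and HF instead of 513, and 396 between HF-Q and t=0 instead of 2596. Member probes called under that setting were 3 between HF and t=0 and 0 in both other comparisons. The cause was not tested. With normexp and loess 3 members were called between HF and t=0, also with no filter on dim probes, 0 probes differed between slides and 5 correlations passed. Under the filter at 4 times background, 3035 probes and 3 of 13 remaining members were called between HF and t=0, where fewer probes were tested. With the slide as a block, 210 probes were called between HF-Q and HF, and 2 members between HF-Q and t=0. With the replicate block, a pairing by number that the mice did not show, 2 members were called between HF-Q and t=0, where Hdac3 (adjusted p = 0.0688) and A_52_P561934 of Ncor1 (adjusted p = 0.0641) were lost. The counts of all probes with the replicate block were 4636, 360 and 2372 in the order HF against t=0, HF-Q against HF and HF-Q against t=0. Without HF-Q replicate 2 these were 415 and 2761 in the comparisons that use it, and members called were 1 and 3, without A_52_P561934 of Ncor1 (adjusted p = 0.0653). The methods' t-test called 4423, 393 and 2483 probes. The scan could not be separated from the slide, since each slide was scanned once.

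Dim probes near background, among them A_52_P388829 of Smarca2, A_52_P147044 of Smarca4 and A_52_P312837 of Smarcc1, resolve differences poorly. The difference of the first between HF and t=0 ran from -0.26 to -0.09 over the settings.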
